A study of Mus musculus with 12 samples.

Results

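The lysosome and autophagy genes examined here are 38 mouse genes chosen by symbol, out of 25230 genes counted by RNA-seq in cultured mouse mesangial cells (MMC). They code for 8 cathepsins and other lysosomal proteases, 12 glycosidases and sulfatases, 5 lipid hydrolases and luminal cofactors, 8 lysosomal membrane proteins, a subunit of the lysosomal proton pump together with the transcription factor Tfeb, and 3 autophagosome proteins. The choice went by gene name, not by a measured value, though earlier results of these data were known when it was made. MMC are the contractile cells that hold the capillary loops of the kidney glomerulus together, and TGF-β is the growth factor that drives their production of matrix in diabetic kidney disease. The study asked how the long non-coding RNA lncMGC, the host transcript of a microRNA cluster, takes part in that response. Primary MMC were grown from pooled glomeruli of wild-type (WT) mice and of the lncMGC-KO5 line, a single mouse line made on C57BL/6J by Cas9 cutting on both sides of the lncMGC start site, which removes a short stretch next to the start and leaves the rest of the gene in place. WT and KO MMC were either serum-depleted (SD) or given TGF-β at 10 ng/ml for 24 h. That made 4 groups of 3 libraries, named WT-SD and WT-TGF, KO-SD and KO-TGF. Neither the age of the mice nor the number of mice behind a culture is given in the sources used here, nor whether the 3 libraries of a group were separate cultures, so p-values measure the spread between these libraries. Genotype and culture cannot be told apart. lncMGC was not among the counted genes, so the deletion could not be checked and KO stands below for the libraries labelled KO.

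Lysosomes are acidified compartments in which hydrolases break down proteins, glycans and lipids that arrive by endocytosis or by autophagy, the process that wraps cytoplasm in a double membrane and delivers it to the lysosome. Most of the hydrolases are made in the endoplasmic reticulum, tagged with mannose 6-phosphate in the Golgi and carried to the lysosome by receptors for that tag, while the V-ATPase keeps the interior acidic. Many of these genes share a short promoter element, CLEAR, built around the letters CACGTG, to which TFEB and its relatives bind when the kinase mTORC1 on the lysosome surface is inactive. In the glomerulus, mesangial cells take up and degrade proteins that reach them from the blood.

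Each library had between 19898050 and 22827706 counts on genes, and 3 counts, the least taken here as detected, corresponded to 0.144 CPM (counts relative to the TMM-scaled library size). Libraries of one group differed by more than counting noise, chi-square over its degrees of freedom being 1.36 to 5.08 in 12 pairs. KO-SD replicate 1 stood farthest from its group, with 5.08 and 4.22 against the other two libraries. Gene levels varied little within a group (biological coefficient of variation 0.0268), so small changes passed the test. Genes with RPKM >1 (CPM divided by exon length, for this limit without TMM scaling) in at least 1 library were tested, 11528 in all. Of the 38 members, 37 were among them. Cln3, a lysosomal membrane protein lost in a juvenile neuronal storage disease, was under that limit and was read from a second fit without that limit. A gene was called at FDR <5% by the quasi-likelihood test of edgeR, adjusted over all genes tested by the Benjamini-Hochberg procedure. For any one gene, exact permutation of 3 against 3 libraries gives p = 0.1 at the least. Of the 8 mesangial and pericyte markers, Pdgfrb was between 285 and 385 CPM and Acta2 was at least 1495 CPM in the 12 libraries. Itga8 was between 0.588 and 3.45 CPM, Ren1 had no count and Thy1 was at 0 or under the floor. Among the 5 markers tested, KO against WT gave 4 higher and 1 lower in SD, with log2 fold changes from -3.84 to 1.27. With TGF-β it gave 3 higher and 2 lower, from -4.47 to 1.48. In each condition 1 of the 5 was lower in KO by a fold change >2, at -3.84 in SD and -4.47 with TGF-β. In neither condition was it a marker named here. By the same measure 2 of the 5 were higher in KO in SD and 3 with TGF-β. Of all genes tested, 3.24% were lower and 3.20% higher by this much in SD, and 4.68% and 1.38% with TGF-β. These markers were thus not alike in the 2 genotypes. In bulk RNA, fewer cells of a type and less RNA per cell cannot be told apart.

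The levels of the members ranged from among the highest to among the lowest of the genes tested (the plot of all members by library). Per length, Ctsd, the main aspartic protease of the lysosome, stood first among the members in WT-SD with 789.7 ± 8.39 RPKM (mean ± standard deviation, n = 3), a level above 99.9% of the genes tested. Laptm4a, a lysosomal transmembrane protein, and Psap, the precursor of the saposins that help enzymes reach sphingolipids, followed with 485 ± 10.98 and 475 ± 3.25 RPKM, which did not differ beyond their spread. Sqstm1 (p62), the receptor that links ubiquitinated cargo to the autophagosome, had 326 ± 1.16 RPKM and Lamp1, a heavily glycosylated protein of the lysosome's limiting membrane, 315 ± 3.19 RPKM. Ctsl, a cysteine protease, had 268 ± 2.88 RPKM. At the other end, Tfeb had 1.80 ± 0.157 RPKM, Ctsk, the collagen-degrading cathepsin of osteoclasts, 0.857 ± 0.0979 RPKM and Cln3 0.155 ± 0.0121 RPKM. Levels thus ranged over more than 3 orders of magnitude within the 38 genes.

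**Figure D1:**
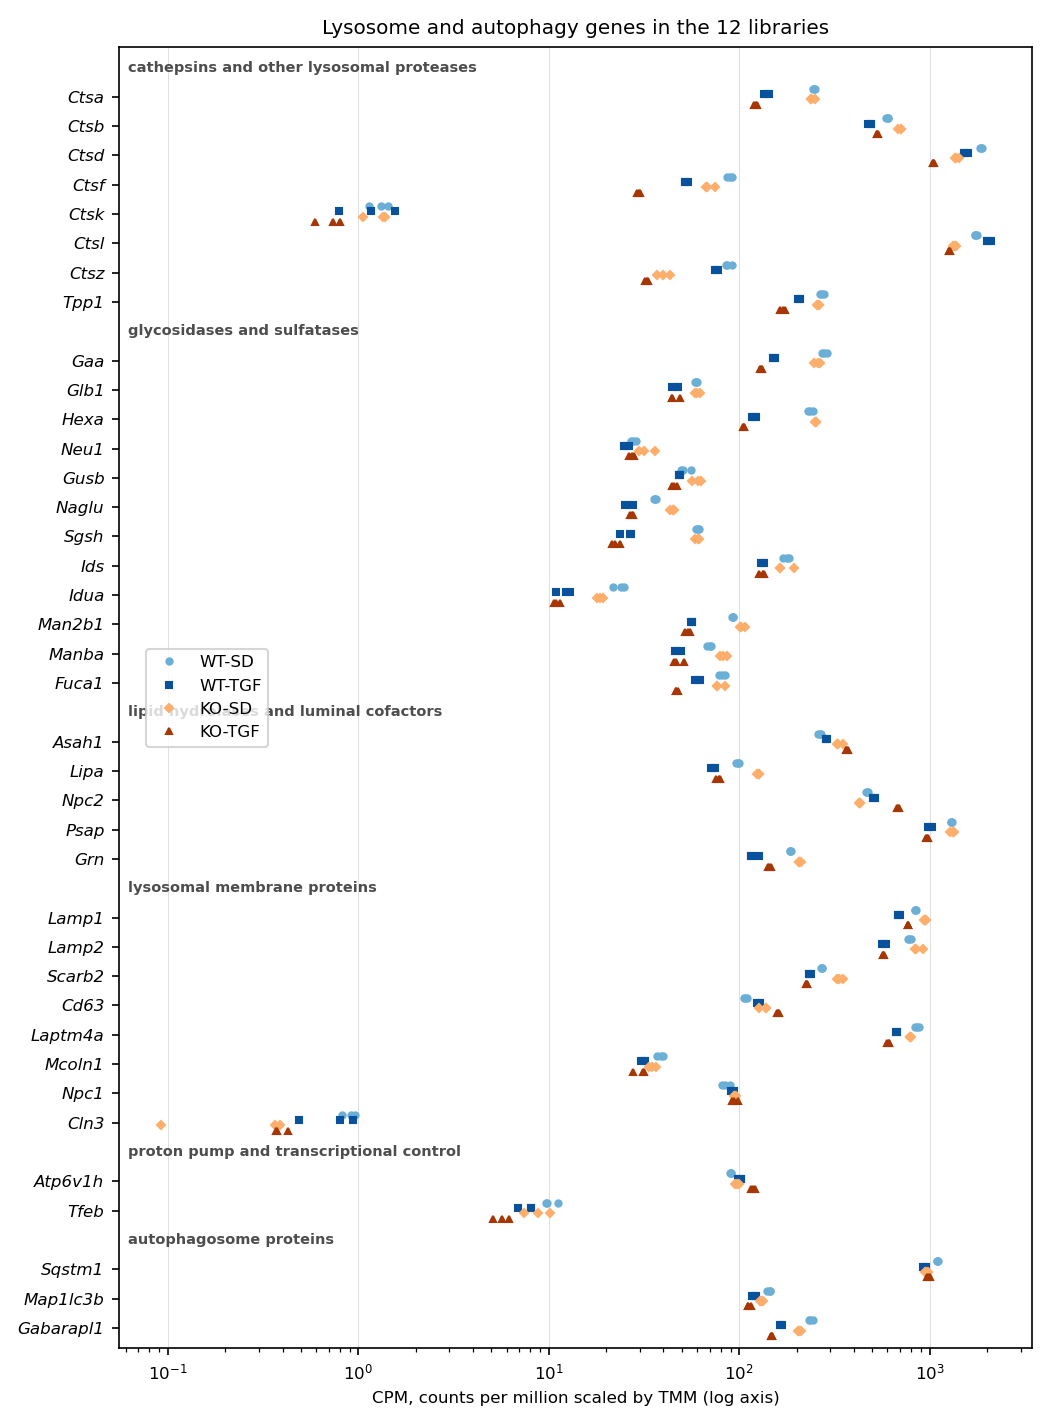
Each point is 1 library, with TMM-scaled CPM on a log axis and the 38 genes in rows by role. In most rows the 2 darker groups (WT-TGF and KO-TGF) sit to the left of the 2 lighter ones (WT-SD and KO-SD). Ctsl, Npc2, Asah1, Cd63, Atp6v1h and Npc1 sit to the right or differ between genotypes, and Cln3 lies below 1 CPM in every library.

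The promoters of the members are shown for the genes that carry the results below. RefSeq promoter sequences of GRCm38.p6, from 250 bases before to 50 bases after the start, were held for 34 of the 38 members (not for Asah1, Atp6v1h, Ctsb and Npc1). The letters CACGTG, which read the same on both strands, were found in 11 of the 34 (32.4%), namely Cln3, Ctsa, Ctsd, Ctsf, Ctsl, Gaa, Glb1, Lamp1, Mcoln1, Naglu and Sgsh, against 12.2% of the 8983 tested genes with a promoter in the table and 8.09% of all 27025 genes in it. The longer palindrome TCACGTGA, which contains the first, was found in 4 members (11.8%), Cln3, Ctsa, Ctsd and Mcoln1, against 2.39% of the tested genes and 1.12% of all genes. A match is a description of the letters and not evidence of binding. Below are the promoters of Sgsh (chr11:119355461-119355760, minus strand) and Ctsf (chr19:4854915-4855214, plus strand), which fell strongly and hold 1 match each, of Lamp1 (chr8:13158911-13159210, plus strand), which holds 4 matches, and of Hexa (chr9:59539290-59539589, plus strand) and Npc2 (chr12:84773063-84773362, minus strand), which hold none and moved in opposite directions. Capitals mark CACGTG.
Sgsh: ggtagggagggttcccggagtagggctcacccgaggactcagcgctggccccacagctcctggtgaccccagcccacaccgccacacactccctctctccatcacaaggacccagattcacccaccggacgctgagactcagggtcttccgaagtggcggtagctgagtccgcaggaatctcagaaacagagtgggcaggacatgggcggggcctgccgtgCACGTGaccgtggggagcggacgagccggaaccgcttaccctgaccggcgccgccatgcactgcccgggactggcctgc
Ctsf: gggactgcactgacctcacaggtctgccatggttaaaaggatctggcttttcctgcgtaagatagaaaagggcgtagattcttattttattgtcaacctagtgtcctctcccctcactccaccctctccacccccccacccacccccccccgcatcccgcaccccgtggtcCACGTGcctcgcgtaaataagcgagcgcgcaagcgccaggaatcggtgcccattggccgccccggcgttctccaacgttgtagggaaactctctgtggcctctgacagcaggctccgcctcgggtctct
Lamp1: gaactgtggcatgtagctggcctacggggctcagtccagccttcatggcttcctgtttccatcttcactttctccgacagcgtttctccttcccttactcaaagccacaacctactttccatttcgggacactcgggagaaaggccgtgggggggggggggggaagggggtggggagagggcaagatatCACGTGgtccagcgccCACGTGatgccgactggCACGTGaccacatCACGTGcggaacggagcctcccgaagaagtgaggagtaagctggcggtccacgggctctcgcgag
Hexa: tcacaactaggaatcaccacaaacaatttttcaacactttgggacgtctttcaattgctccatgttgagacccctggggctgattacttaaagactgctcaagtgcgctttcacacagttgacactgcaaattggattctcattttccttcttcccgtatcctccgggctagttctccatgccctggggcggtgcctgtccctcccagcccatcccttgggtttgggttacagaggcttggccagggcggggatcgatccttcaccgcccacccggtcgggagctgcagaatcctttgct
Npc2: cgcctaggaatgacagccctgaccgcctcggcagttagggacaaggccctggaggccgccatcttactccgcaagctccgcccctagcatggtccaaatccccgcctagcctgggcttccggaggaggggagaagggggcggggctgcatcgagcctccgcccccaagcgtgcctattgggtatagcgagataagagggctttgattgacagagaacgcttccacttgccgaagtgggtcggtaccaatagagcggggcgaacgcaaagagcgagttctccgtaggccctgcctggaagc
The match began 29 bases upstream of the start in Sgsh and 79 bases upstream in Ctsf. In Lamp1 the matches began 61, 45, 28 and 15 bases upstream.

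The first question was what TGF-β does to these genes in WT MMC. Of the 37 members tested, 28 fell and 6 rose at FDR <5%, against 36.4% of all genes tested that fell and 36.0% that rose (72.4% in either direction). The median log2 fold change of the members was -0.36, and that of all genes tested was -0.005. Most of the changes were modest, and Sgsh was the single member that fell with a fold change >2, a size that 5.78% of all genes reached in that direction and 4.15% in the other. The 3 WT-TGF libraries lay below the 3 WT-SD libraries without overlap in 30 members and above them in 6, against 37.8% and 37.3% of all genes. When libraries were scaled by total counts in place of TMM, the median of all genes itself moved to -0.16, the members split into 30 lower and 2 higher against 52.5% and 22.9% of all genes, and the members' median less that of all genes was -0.36.

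In KO MMC the same comparison gave 31 members lower and 4 higher, against 39.1% and 34.9% of all genes (74.1% in either direction). The median of the members was -0.44, and that of all genes was -0.025. Sgsh, Hexa and Ctsf fell with a fold change >2, as 9.15% of all genes did, and none rose so far, as 4.38% of all genes did. Libraries of the 2 groups did not overlap in 31 members that were lower and 4 that were higher, against 39.2% and 35.1% of all genes. With scaling by library size the median of all genes was -0.23, and the split became 34 lower and 2 higher against 58.2% and 19.9% of all genes. In both genotypes 27 of the 37 members fell (31.9% of all genes did) and 4 rose (30.1% of all genes did). The responses in WT and KO come from separate control libraries and are drawn side by side in the plot of the TGF-β responses.

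**Figure D2:**
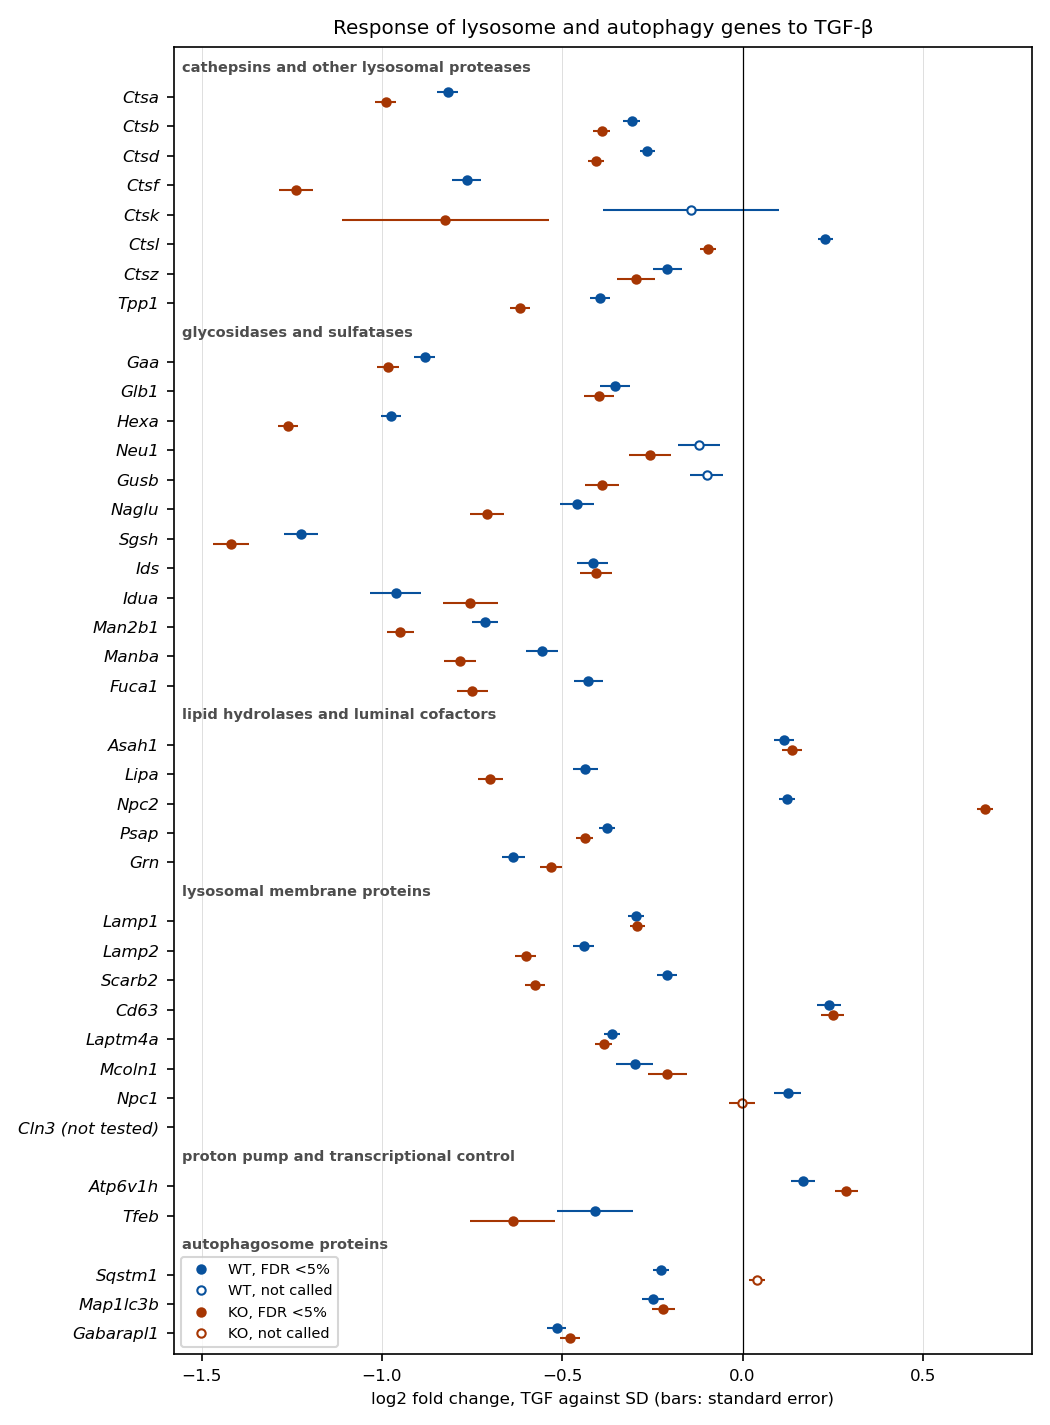
Log2 fold change of each member with TGF-β against SD in WT (blue) and KO (brown), with standard errors from the edgeR fit of all 12 libraries. Filled points passed FDR <5% and open points did not. Most points lie left of zero, Sgsh lies farthest left in both genotypes (-1.22 in WT and -1.42 in KO), and Npc2 farthest right in KO (0.67).

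The 12 glycosidases and sulfatases strip sugars and sulfates from glycosaminoglycans, glycoproteins and glycolipids, and their loss causes the mucopolysaccharidoses and related storage diseases. With TGF-β, 10 of the 12 fell in WT and none rose, and in KO MMC all 12 of them fell, where 36.4% of all genes tested fell in WT and 39.1% in KO. Sgsh, the sulfatase that removes N-linked sulfate from heparan sulfate, had 59.4, 61.7 and 60.5 CPM in WT-SD against 23.8, 26.8 and 27.1 in WT-TGF. KO cells had 58.6, 61.7 and 60.6 CPM in SD against 22.4, 21.5 and 23.7 with TGF-β. Each treated library was thus below each control library of its genotype. The log2 fold change was -1.22 (standard error 0.0474, edgeR adjusted p = 2.58e-20) in WT and -1.42 (standard error 0.0501, edgeR adjusted p = 2.03e-21) in KO. Hexa, the alpha subunit of the hexosaminidase that degrades the ganglioside GM2, had 244, 234 and 231 CPM in WT-SD against 117, 123 and 121 in WT-TGF. In KO MMC the values were 251, 254 and 252 CPM in SD and 106, 104 and 106 with TGF-β. The 2 conditions did not overlap in either genotype, and the fall was -0.98 (standard error 0.0278, edgeR adjusted p = 9.80e-24) in WT and -1.26 (standard error 0.0286, edgeR adjusted p = 2.24e-26) in KO, the latter to a level 58.3% lower.

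Idua, which removes iduronic acid from heparan and dermatan sulfate, was lower in abundance. It had 25.0, 23.9 and 21.7 CPM in the WT-SD libraries, 12.3, 12.9 and 10.97 after TGF-β, 17.9, 19.2 and 18.6 in the KO-SD libraries and 11.4, 10.9 and 10.7 after TGF-β. Its fall was -0.96 (standard error 0.0699, edgeR adjusted p = 1.90e-13) in WT and -0.76 (standard error 0.0767, edgeR adjusted p = 3.32e-10) in KO. Gaa, the glucosidase that digests glycogen in the lysosome and is lost in Pompe disease, fell by 45.7% in WT and 49.4% in KO. The mannosidases Man2b1 and Manba, which trim glycoproteins, fell by 39.1% and 32.0% in WT and by 48.2% and 41.9% in KO. Naglu, the glucosaminidase of heparan sulfate, Fuca1, the fucosidase, Ids, the iduronate sulfatase, and Glb1, the beta-galactosidase used as a mark of senescent cells, fell by 21.7% to 27.3% in WT and by 24.1% to 40.5% in KO. The sialidase Neu1 and the glucuronidase Gusb fell in KO, with log2 fold changes of -0.26 and -0.39. In WT they were at -0.12 (edgeR adjusted p = 0.0683) and -0.10 (edgeR adjusted p = 0.0529), just short of the threshold, and the libraries of WT-TGF lay below those of WT-SD without overlap in both.

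Among the 8 proteases, 6 fell and 1 rose in WT (36.4% and 36.0% of all genes), and in KO all 8 fell (39.1% of all genes), with the call of Ctsk resting on KO-TGF replicate 1. Ctsf, a cysteine protease linked to adult neuronal storage disease, had 89.8, 86.3 and 91.4 CPM in WT-SD against 53.6, 51.9 and 51.9 in WT-TGF. The KO-SD libraries held 67.1, 68.1 and 74.5 CPM and the KO-TGF libraries 29.7, 30.1 and 29.2. KO-TGF was the lowest group and WT-SD the highest, with no overlap between any pair of groups. The fall was -0.76 (standard error 0.0401, edgeR adjusted p = 6.49e-17) in WT and -1.24 (standard error 0.0462, edgeR adjusted p = 8.32e-21) in KO. Ctsl rose in WT and fell in KO. It had 1731, 1762 and 1728 CPM in the WT-SD libraries, 2000.4, 2035 and 2086 after TGF-β, 1364, 1381 and 1321 in the KO-SD libraries and 1257, 1268 and 1279 after TGF-β. The changes, 0.23 (standard error 0.0215, edgeR adjusted p = 6.32e-11) in WT and -0.10 (standard error 0.0217, edgeR adjusted p = 0.000228) in KO, were small but outside the spread of the libraries.

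Ctsd, the most abundant protease per length in WT-SD, had 1839, 1853 and 1878 CPM in WT-SD against 1512, 1537 and 1590.5 in WT-TGF. KO cells had 1365, 1418 and 1379 CPM in SD against 1045, 1051 and 1046 with TGF-β. The 4 groups formed 4 separate levels, and the fall with TGF-β was -0.26 (standard error 0.0217, edgeR adjusted p = 3.62e-12) in WT and -0.41 (standard error 0.0219, edgeR adjusted p = 1.07e-16) in KO. Ctsa, the carboxypeptidase that also protects Neu1 and Glb1 in a complex, fell by 43.3% in WT and 49.6% in KO. Tpp1, a tripeptidyl peptidase lost in late-infantile neuronal storage disease, fell by 24.0% and 34.8%, and Ctsb, a cysteine protease, by 19.2% and 23.7%. Ctsz, a carboxypeptidase, had 86.4, 91.4 and 84.9 CPM in WT-SD against 74.5, 77.0 and 75.8 in WT-TGF, a change of -0.21 (standard error 0.0406, edgeR adjusted p = 3.76e-05), and its values in KO are given with the genotypes below. Ctsk rested on few counts, 29, 33 and 25 in WT-SD, 33, 26 and 16 in WT-TGF, 23, 28 and 30 in KO-SD and 11, 15 and 14 in KO-TGF. Its fall in KO (-0.82, standard error 0.287, edgeR adjusted p = 0.0113) was no longer called without KO-TGF replicate 1, and in WT its libraries overlapped (-0.14, edgeR adjusted p = 0.608).

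The 5 lipid hydrolases and luminal cofactors split into 3 that fell and 2 that rose in each genotype. Of all genes tested, 36.4% fell and 36.0% rose in WT, and 39.1% fell and 34.9% rose in KO. Npc2, the soluble protein that hands cholesterol to the membrane protein Npc1 for export, had 465, 466 and 474 CPM in WT-SD against 503, 515 and 512 in WT-TGF. In KO MMC the values were 423, 432 and 429 CPM in SD and 674, 679 and 694 with TGF-β. KO-TGF was the highest group and KO-SD the lowest, and the libraries of the 4 groups did not overlap. The rise was 0.12 (standard error 0.0227, edgeR adjusted p = 1.76e-05) in WT, where scaling by library size turned it to -0.04, and 0.67 (standard error 0.0228, edgeR adjusted p = 7.42e-22) in KO, a level 59.3% higher. Asah1, the acid ceramidase, had 266, 269 and 259 CPM in the WT-SD libraries, 286, 285 and 289 after TGF-β, 351, 326 and 329 in the KO-SD libraries and 374, 368 and 364 after TGF-β. Its rise of 0.11 in WT (edgeR adjusted p = 0.000492) and 0.14 in KO (edgeR adjusted p = 4.36e-05) turned to -0.04 and -0.07 when libraries were scaled by size. Lipa, the acid lipase that frees cholesterol from its esters, had 100.1, 96.4 and 99.1 CPM in the WT-SD libraries, 73.3, 74.2 and 70.8 after TGF-β, 124, 127 and 128 in the KO-SD libraries and 79.4, 75.9 and 78.2 after TGF-β. It fell by 26.1% in WT and 38.4% in KO. Psap changed by -0.38 and -0.44 on the log2 scale, and Grn, which codes for progranulin, the precursor of granulins found in the lysosome, fell by 35.6% and 30.8%.

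Of the 7 membrane proteins tested, 5 fell and 2 rose in WT (36.4% and 36.0% of all genes). In KO 5 fell and 1 rose (39.1% and 34.9% of all genes). Lamp1 and Lamp2, the main glycoproteins of the limiting membrane, of which Lamp2 also takes part in autophagy, changed by -0.29 and -0.44 in WT and by -0.29 and -0.60 in KO. Laptm4a changed by -0.36 and -0.39, and Mcoln1, the calcium channel mutated in mucolipidosis type IV, by -0.30 and -0.21. Scarb2 (LIMP-2), which carries glucocerebrosidase to the lysosome without the mannose tag, had 268, 271 and 273 CPM in WT-SD against 231, 233 and 238 in WT-TGF. The KO-SD libraries held 351, 335 and 326 CPM and the KO-TGF libraries 228, 226 and 225. The step down from KO-SD to KO-TGF was the larger, -0.58 (standard error 0.0271, edgeR adjusted p = 3.18e-18) against -0.21 (standard error 0.0270, edgeR adjusted p = 4.76e-08) in WT. Cd63, a tetraspanin of late endosomes, lysosomes and exosomes, rose, with 107, 106 and 110.3 CPM in the WT-SD libraries, 125, 129 and 127 after TGF-β, 127, 138 and 138 in the KO-SD libraries and 159, 158 and 162 after TGF-β. The rise was 0.24 (standard error 0.0330, edgeR adjusted p = 1.51e-07) in WT and 0.25 (standard error 0.0321, edgeR adjusted p = 3.84e-08) in KO, where it was not called when libraries were scaled by size (0.05). Npc1, the cholesterol exporter, rose by 0.12 in WT (edgeR adjusted p = 0.00334), turned to -0.03 by scaling to library size, and was at 0.00 in KO (edgeR adjusted p = 0.98). Cln3 had 18, 21 and 21 counts in WT-SD, 17, 11 and 19 in WT-TGF, 8, 8 and 2 in KO-SD and 7, 8 and 7 in KO-TGF, and was not called with TGF-β in either genotype.

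Atp6v1h, a subunit of the V-ATPase, rose. It had 90.2, 90.2 and 89.5 CPM in the WT-SD libraries, 102, 102 and 98.9 after TGF-β, 99.4, 94.5 and 97.0 in the KO-SD libraries and 121, 118 and 116 after TGF-β. The rise was 0.17 (standard error 0.0325, edgeR adjusted p = 3.44e-05) in WT and 0.29 (standard error 0.0323, edgeR adjusted p = 2.65e-09) in KO, and in WT it was at 0.01 and not called with scaling by library size. Tfeb itself had 9.64, 9.76 and 11.2 CPM in the WT-SD libraries, 8.08, 8.02 and 6.92 after TGF-β, 7.44, 8.78 and 10.2 in the KO-SD libraries and 5.09, 5.67 and 6.20 after TGF-β. It fell by 24.7% in WT (edgeR adjusted p = 0.000938) and 35.7% in KO (edgeR adjusted p = 1.94e-05), and the treated libraries lay below the controls in both genotypes. These counts say nothing of where the TFEB protein was, which is how its activity is set.

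The 3 autophagosome genes fell in WT, where 36.4% of all genes tested fell, and 2 of them fell in KO, against 39.1% of all genes. Gabarapl1 and Map1lc3b, which code for ubiquitin-like proteins that are attached to the autophagosome membrane, changed by -0.52 and -0.25 in WT and by -0.48 and -0.22 in KO. Sqstm1 had 1093, 1099.6 and 1092 CPM in WT-SD against 919, 933 and 956 in WT-TGF. KO cells had 947, 982 and 954 CPM in SD against 973, 994 and 1001 with TGF-β, so that WT-SD was above the other groups. It fell by 14.5% in WT (log2 fold change -0.23, standard error 0.0221, edgeR adjusted p = 1.63e-10). In KO it was at 0.04 (standard error 0.0222, edgeR adjusted p = 0.0933), at 0.05 to 0.08 and called under DESeq2, another filter, no filter, a fit of the KO groups alone or with KO-SD replicate 2 or either of KO-TGF replicates 1 and 2 left out, and at -0.16 and called in the other direction with scaling by library size.

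**Figure D3:**
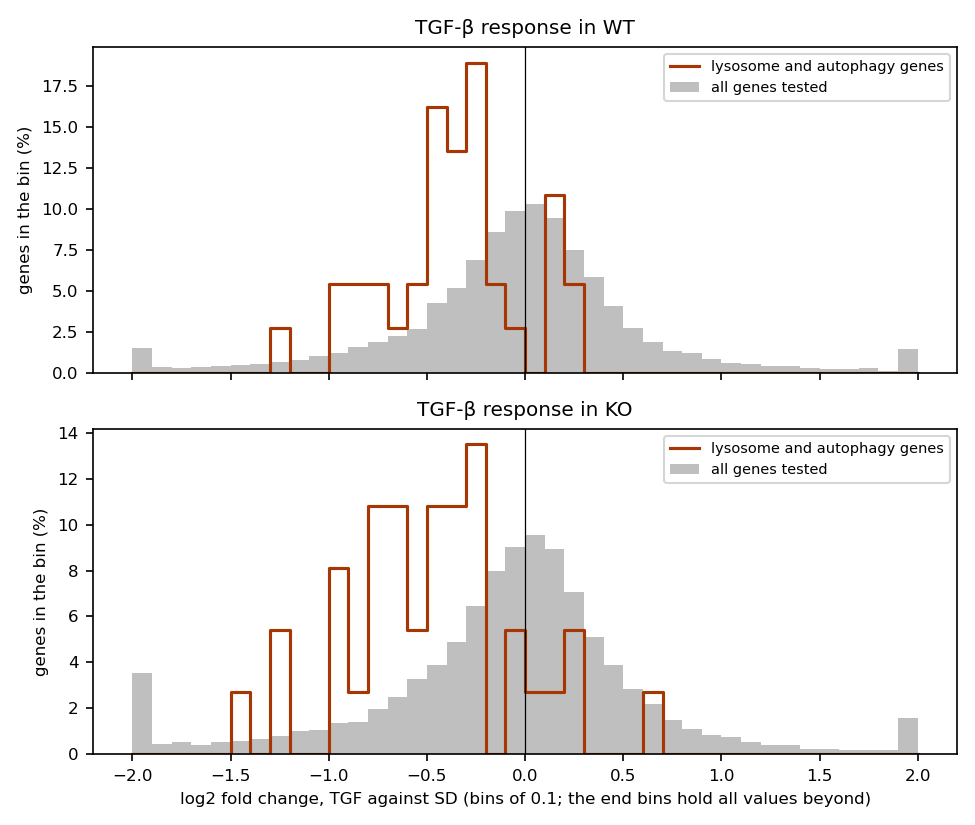
Share of genes in bins of 0.1 log2 fold change with TGF-β, for all 11528 genes tested (grey bars) and the 37 members tested (brown line), in WT (upper panel) and KO (lower panel). The members are shifted to the left of all genes in both panels, with medians of -0.36 and -0.44 against -0.005 and -0.025.

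Whether KO and WT MMC answered TGF-β differently was tested as the interaction, that is the response in KO minus that in WT. It was negative at FDR <5% in 15 of the 37 members and positive in 2, against 16.6% and 8.67% of all genes tested (25.3% in either direction). None reached a fold change >2, as 2.39% and 0.338% of all genes did. The median over the members was -0.13 and that over all genes -0.03. Of the 15 genes, 14 were lower with TGF-β in both genotypes by their point estimates and more so in KO, and Ctsl was the exception. Scarb2, Lamp2, Gusb, Naglu, Man2b1 and Manba were higher in KO than in WT in SD and not called between genotypes with TGF-β. Lipa was higher in KO in both conditions. Ctsf, Ctsl, Fuca1, Hexa, Tpp1, Sgsh, Ctsa and Ctsd were lower in KO with TGF-β. By role, the interaction was negative in 5 of 8 proteases (Ctsf, Ctsl, Tpp1, Ctsa and Ctsd), in 7 of 12 glycosidases and sulfatases (Fuca1, Gusb, Hexa, Naglu, Man2b1, Manba and Sgsh), in 1 of the 5 lipid hydrolases and cofactors (Lipa) and in 2 of 7 membrane proteins (Scarb2 and Lamp2). Ctsf had the most negative value, -0.47 (standard error 0.0619, edgeR adjusted p = 4.82e-07), followed by Scarb2 with -0.37 (standard error 0.0383, edgeR adjusted p = 7.10e-09) and Ctsl with -0.33 (standard error 0.0305, edgeR adjusted p = 7.93e-10). Npc2 had the most positive, 0.55 (standard error 0.0322, edgeR adjusted p = 2.46e-14), and Sqstm1 the other, 0.27 (standard error 0.0313, edgeR adjusted p = 6.45e-08). The calls of Ctsa, Lamp2, Manba, Naglu and Sgsh depended on single libraries or on the tool, with Sgsh (-0.20, edgeR adjusted p = 0.0415) lost under DESeq2 and without any 1 of 9 libraries. Without KO-SD replicate 1, the library that stood apart, 19 members were negative and 3 positive. Without KO-TGF replicate 1, 2 or 3, the number negative was 12, 11 or 13. Without KO-TGF replicate 1 the median of the members was -0.066 and that of all genes 0.008. Without KO-TGF replicate 1 or replicate 3, 4 were positive, Atp6v1h and Grn being added. Scaled by library size, 19 were negative and 2 positive against 23% and 5.95% of all genes.

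The genotypes differed less uniformly. In SD, 16 members were higher in KO than in WT and 13 lower, against 30.9% and 25.2% of all genes tested (56.1% in either direction), and the medians were -0.006 and 0.02. Libraries did not overlap in the same numbers, 16 and 13, against 32.4% and 26.8% of all genes. Proteases were mostly lower in KO-SD (5 of 8, and 1 higher), as were the 3 autophagosome genes, while glycosidases and sulfatases (6 higher and 2 lower of 12), lipid hydrolases and cofactors (3 higher and 1 lower of 5) and membrane proteins (5 higher and 2 lower of 7) were more often higher. With TGF-β, 9 members were higher in KO and 15 lower, against 27.2% and 27.8% of all genes (55.0% in either direction), with medians of -0.05 and -0.004. Libraries did not overlap in 9 and 17 members, against 30.6% and 30.8%. Ctsk was called lower though its libraries overlapped, and Gusb, Man2b1 and Scarb2 were not called though theirs did not. Scaling by library size moved the median of all genes to -0.13 in TGF, and gave 5 members higher and 24 lower there against 14.3% and 46.9% of all genes, and 14 higher and 18 lower in SD against 21.2% and 36.4%. In KO-TGF, 7 of the 8 proteases were lower and 1 higher, 4 of the 12 glycosidases and sulfatases were lower and none higher, and 4 of the 5 lipid hydrolases and cofactors were higher and none lower.

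**Figure D4:**
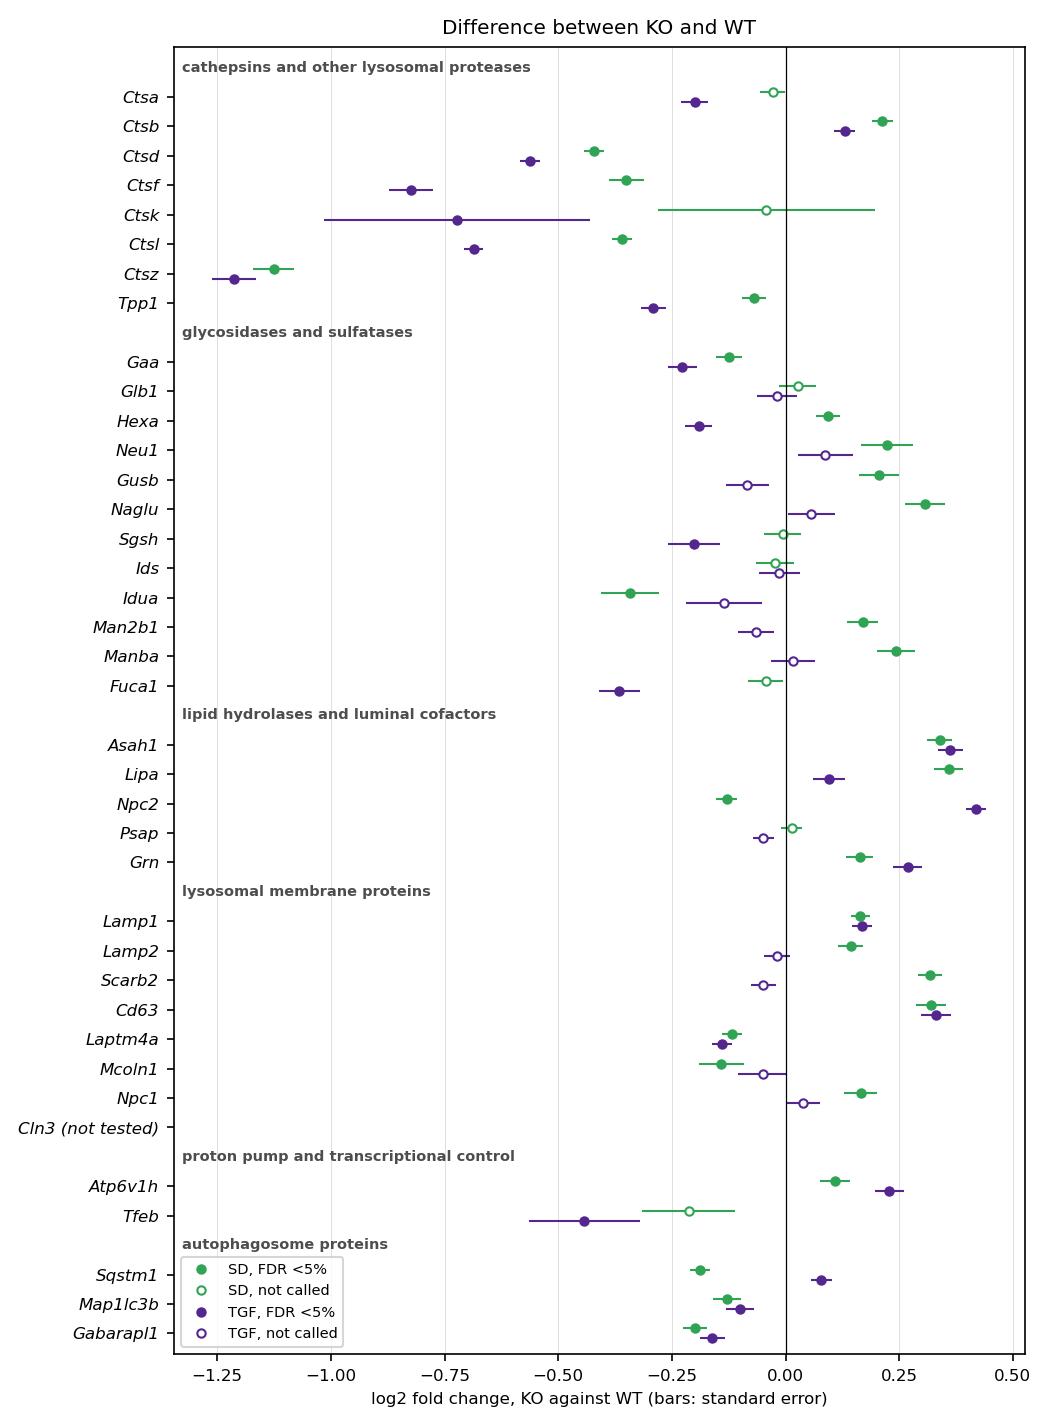
Log2 fold change of each member in KO against WT, in SD (green) and with TGF-β (purple), with standard errors from the edgeR fit. Filled points passed FDR <5%. Ctsz is the member farthest to the left in both conditions (-1.13 and -1.21), and Npc2 lies left of zero in SD (-0.13) and right of it with TGF-β (0.42).

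Ctsz (chr2:174427494-174439039, minus strand, GRCm38) differed most among the 37 members tested. It had 37.1, 43.5 and 39.9 CPM in KO-SD, against 86.4, 91.4 and 84.9 CPM in WT-SD, and 32.1, 33.0 and 32.9 CPM in KO-TGF, against 74.5, 77.0 and 75.8 CPM in WT-TGF. The KO libraries lay below the WT libraries by a wide gap in both conditions, 2.18-fold in SD (log2 fold change -1.13, standard error 0.0443, edgeR adjusted p = 1.05e-19) and 2.32-fold with TGF-β (-1.21, standard error 0.0478, edgeR adjusted p = 1.12e-19). It was the single member tested with a fold change >2, against 3.24% of all genes that were lower by this much in SD and 4.68% with TGF-β, and 3.20% and 1.38% that were higher. Ctsd was 25.3% lower in SD (-0.42, standard error 0.0217, edgeR adjusted p = 1.11e-16) and 32.3% lower with TGF-β, Ctsl 22.1% and 37.9% lower, and Ctsf 21.5% and 43.5% lower. Ctsk, with its few counts, was 39.4% lower with TGF-β (edgeR adjusted p = 0.0367), a call that was lost under DESeq2 and without any 1 of 5 libraries. Cln3 was lower in KO-SD by -1.63 on the log2 scale in the fit of all genes (standard error 0.381, edgeR adjusted p = 7.76e-05), on the counts given above, and was at -0.90 with TGF-β (edgeR adjusted p = 0.0511).

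Of the 5 lipid hydrolases and cofactors, 3 were higher and 1 lower in KO-SD (30.9% and 25.2% of all genes). Asah1 was 26.5% higher in SD (0.34, standard error 0.0273, edgeR adjusted p = 4.33e-12) and 28.6% higher with TGF-β (0.36, standard error 0.0273, edgeR adjusted p = 1.03e-12), and Lipa was 28.3% higher in SD (0.36, standard error 0.0321, edgeR adjusted p = 4.90e-11). With TGF-β the difference in Lipa shrank to 0.10 (edgeR adjusted p = 0.0228), which was not called without WT-TGF replicate 3 and turned to -0.03 with scaling by library size. Npc2 was lower in KO-SD (-0.13, edgeR adjusted p = 1.58e-05) and 33.7% higher in KO-TGF (0.42, standard error 0.0226, edgeR adjusted p = 3.24e-16). Grn was higher in both conditions (0.16 and 0.27), whereas Psap was not called in either (0.01 and -0.05). Cd63 was 24.9% and 25.8% higher, Lamp1 0.16 and 0.17 higher and Atp6v1h 0.11 and 0.23 higher on the log2 scale. Scarb2 was higher by 0.32 in SD (edgeR adjusted p = 1.02e-11) and not called with TGF-β (-0.05, edgeR adjusted p = 0.135). Sqstm1 was lower in SD (-0.19, edgeR adjusted p = 1.36e-08) and higher with TGF-β by 0.08 (edgeR adjusted p = 0.00318), which turned to -0.04 when libraries were scaled by size.

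Macrophages are rich in lysosomes, and markers of macrophages differed between the 4 groups. The markers that were called between the genotypes were lower in KO. The summed level of the 18 markers was 41.7 to 44.7 CPM in the WT-SD libraries, 22.98 to 27.2 in WT-TGF, 8.45 to 10.1 in KO-SD and 2.67 to 2.95 in KO-TGF. In the fit of all genes, 15 of the 18 were lower in KO in each condition, 7 fell with TGF-β in WT and 3 in KO, and none was higher in any of these. Of the defining markers, Adgre1 was 7.59 to 7.72 CPM in WT-SD, 2.84 to 5.48 in WT-TGF and 0 in the 6 KO libraries, and Lyz2 was 10.8 to 13.4 CPM in WT-SD, 7.19 to 9.44 in WT-TGF, 0.275 to 0.459 in KO-SD and 0 to 0.105 in KO-TGF. In KO-SD 10 of the 18 were at 0 in the 3 libraries, among them Spi1, Tyrobp, Itgam and the C1q genes, and in KO-TGF 8 were. In the KO-SD and KO-TGF libraries, 15 of the 18 markers were at most 0.459 CPM in each library. The others, in KO-SD and KO-TGF, were Cd14 (6.02 to 7.71 CPM and 1.18 to 1.497 CPM), Cd68 (1.10 to 1.19 CPM and 0.321 to 0.857 CPM) and Csf1r (0.459 to 0.676 CPM and 0.428 to 0.589 CPM). The part of these cells in the values of the members, in any of the comparisons, was not tested.

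The other genes of the pathway, 134 tested of 138 listed, did not move as one. With TGF-β in WT, 67 fell and 38 rose, and in KO 65 fell and 39 rose, against the shares of all genes given above. The further hydrolases and cofactors of the lysosome fell in 18 of 25 tested in WT and 19 in KO, and rose in 4 and 3. Arsa, the arylsulfatase that degrades sulfatide, changed by -0.81 in WT (edgeR adjusted p = 5.13e-16), and Ctso, a cysteine protease, by -0.96 in KO (edgeR adjusted p = 8.29e-16). Ctsc, the dipeptidyl peptidase that activates granule proteases of immune cells, went the other way, being 88.0 to 90.8 CPM in SD against 195 to 207 with TGF-β in WT, and 109 to 122 against 218 to 232 in KO (log2 fold changes 1.19 and 0.97, edgeR adjusted p = 2.54e-23 and 2.52e-21). Among other membrane transporters and proteins, 10 of 13 fell and 1 rose in each genotype. Abca2, a lipid transporter of lysosomes, had the largest fall (-0.71 in WT and -1.12 in KO, edgeR adjusted p = 2.25e-17 and 1.52e-21), with an interaction of -0.41 (edgeR adjusted p = 4.35e-07). Mfsd8, a chloride channel of the lysosome, rose by 0.20 and 0.37.

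Subunits of the V-ATPase other than Atp6v1h had 9 of 16 higher and 2 lower in WT, and 9 higher and 4 lower in KO. For this and the next lists, 36.0% of all genes rose and 36.4% fell in WT, and 34.9% and 39.1% in KO. Atp6v1e1 rose by 0.57 in WT (edgeR adjusted p = 1.57e-17) and 0.48 in KO (edgeR adjusted p = 3.24e-15), and Atp6v0e2 fell by 0.26 and 0.45 on the log2 scale. Genes that tag enzymes and sort them to the lysosome had 8 of 16 lower in each genotype and 4 and 3 higher. Nagpa, which uncovers the mannose 6-phosphate tag, changed by -0.51 in WT, and Gnptab, the subunit of the enzyme that makes the tag, by -0.91 in KO with an interaction of -0.43 (edgeR adjusted p = 2.16e-08). Ap1s1, of the AP-1 coat, rose by 0.34 and 0.50. Of the remaining machinery of autophagy, 15 of 40 rose and 16 fell in WT, and 18 rose and 12 fell in KO, with medians of 0.02 and 0.07. In WT these were 37.5% and 40.0%, near the shares of all genes, and in KO 45.0% and 30.0%. Optn, another cargo receptor, fell by 0.88 and 0.89 on the log2 scale, Vamp8, a SNARE of the fusion with lysosomes, rose by 0.46 in WT, and Epg5, a tether for that fusion, by 0.62 in KO, with an interaction of 0.44 (edgeR adjusted p = 1.00e-08).

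Among relatives of Tfeb and genes of mTORC1 control at the lysosome, 13 of 24 fell and 5 rose in WT (36.4% and 36.0% of all genes). In KO 12 fell and 5 rose (39.1% and 34.9% of all genes). In each genotype 5 of these genes fell with a fold change >2, as 5.78% of all genes did in WT and 9.15% in KO. Rragd, the Rag GTPase that TFEB relatives switch on and that brings mTORC1 to the lysosome, had the largest fall of the pathway genes tested. It was 41.5 to 43.4 CPM in WT-SD, 9.60 to 10.4 in WT-TGF, 21.5 to 26.3 in KO-SD and 3.11 to 3.53 in KO-TGF, changes of -2.08 (standard error 0.0668, edgeR adjusted p = 2.21e-22) in WT and -2.85 (standard error 0.0968, edgeR adjusted p = 7.38e-22) in KO, with an interaction of -0.78 (standard error 0.133, edgeR adjusted p = 3.59e-05). Rheb, the GTPase that activates mTORC1, rose by 0.61 and 0.83.

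**Figure D5:**
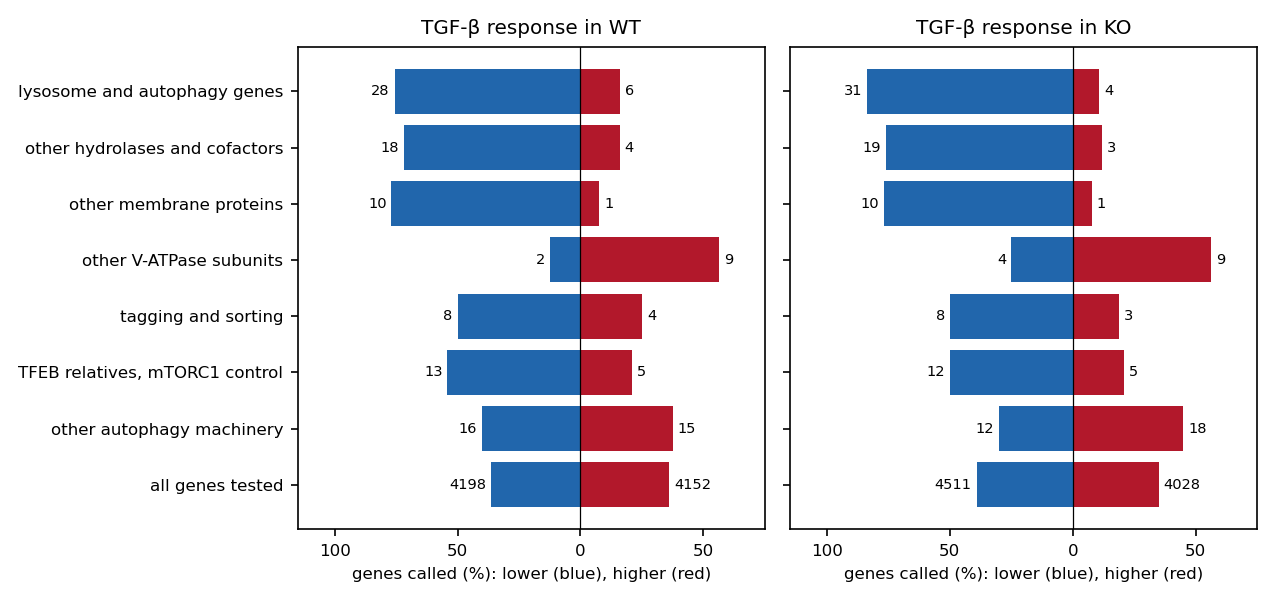
Share of tested genes called lower (blue, to the left) or higher (red, to the right) with TGF-β at FDR <5% in WT and KO, with the number of genes beside each bar, for the members, the 6 lists of other pathway genes and all genes tested. The bars to the left are longest for the members, the other hydrolases and the other membrane proteins, and for the V-ATPase subunits the longer bar is on the right (9 higher and 2 lower in WT).

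Members with and without CACGTG in the promoter are compared here as a description. With TGF-β in WT, 9 of the 10 tested members with the letters fell and 1 rose, and 18 of the 23 without them fell and 2 rose, with medians of -0.41 and -0.40. In KO the medians were -0.56 and -0.53, with 10 of 10 lower and 20 of 23 lower. Sgsh, with 1 match, fell farthest in both genotypes, and Hexa fell nearly as far with none of these letters in the window printed above. Lamp1, with 4 matches, was among the less changed members (-0.29 in each genotype). Only exact matches in this window were counted, and the part of the letters in the changes was not tested.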

How the data were processed

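RNA-seq libraries of WT and lncMGC-KO5 MMC, in SD or with TGF-β, were analysed from the deposited counts, 1 whole number per gene and library, which the authors made by TopHat alignment to mm10 and HTSeq-count over RefSeq annotation with the strand taken into account. The counts are not normalized. Reads aligned to several places are not in them, so genes with near-identical copies are uncertain, and reads outside genes (10.3% to 15.4% of a library), on overlapping genes (0.225% to 0.274%) and with several alignments (11.2% to 11.7%) stayed out of library sizes and tests. Depth was 19898050 to 22827706 counts. Exon lengths came from GENCODE vM21 (24706 genes), symbols and coordinates from RefSeq GRCm38.p6 (24930 genes matched by symbol, 199 by an older one, 101 not).

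The expression limit and TMM scaling follow the methods of the study (RPKM >1, reached in 1 library or more). Testing was by edgeR 4.0.16 under R 4.3.3, as one fit of the 12 libraries with one mean per group, with Benjamini-Hochberg adjustment. The procedure was tested on simulated data. CPM and RPKM in the text use TMM, except in the expression limits, which use library size alone. Alternatives were scaling by library size, DESeq2 1.42.0, a CPM limit of 1 in 3 libraries, tests without a limit, fits restricted to the compared groups, a block for replicate number and each library left out. Every member is named, and values in each library are given for those among the 3 largest changes in either direction of a contrast at FDR <5%. Values in each library of Tfeb are given outside this rule, chosen after they were seen. From each other list, the genes with the largest changes and at least 5 CPM are named. The members and lists, the other pathway genes and markers of macrophages, osteoclasts, podocytes, endothelial, tubular and mesangial cells among them, were chosen with earlier results of these data known.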

Additional observations from a re-analysis of the deposited data

Results flagged for a closer look

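In 17 members the TGF-β response differed between genotypes by the test of the interaction itself (KO response minus WT response, edgeR FDR <5%), against 25.3% of all genes tested. It was more negative in KO for Ctsf (-0.47), Scarb2 (-0.37), Ctsl (-0.33), Fuca1 (-0.32), Gusb (-0.29), Hexa (-0.28), Lipa (-0.26), Naglu (-0.25), Man2b1 (-0.23), Manba (-0.23), Tpp1 (-0.22), Sgsh (-0.20), Ctsa (-0.17), Lamp2 (-0.16) and Ctsd (-0.14), on the log2 scale, against 16.6% of all genes. The calls of Sgsh, Ctsa, Lamp2, Manba and Naglu were lost when single libraries were left out, and those of Sgsh and Naglu also under DESeq2. It was more positive for Sqstm1 (0.27) and Npc2 (0.55), against 8.67% of all genes. Ctsl rose in WT and fell in KO, and Npc2 rose in both, though in WT its rise turned to -0.04 with scaling by library size. For Sqstm1 a fall in WT stood beside a value in KO that was not called.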

How the results depend on the processing

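Replicate numbers paired the libraries weakly if at all: 1 of 18 same-numbered pairs had a correlation of deviations over 0.1 (range -0.03 to 0.15). Of the 12 libraries, 10 correlated best with their own number. A block for replicate number gave a biological coefficient of variation of 0.0235, against 0.0268 without it. With the replicate block, the members called lower and higher were 29 and 6 with TGF-β in WT, 31 and 4 in KO, 13 and 16 for KO against WT in SD, 16 and 9 with TGF-β, and 16 and 4 in the interaction. DESeq2 also gave 4 higher in the interaction. Scaling by library size gave 2 members higher in each TGF-β response, 5 higher and 24 lower for KO against WT with TGF-β, and medians of -0.52 (TGF-β in WT), -0.64 (TGF-β in KO), -0.082 (KO against WT in SD), -0.17 (KO against WT with TGF-β) and -0.17 (interaction). It changed the sign of Asah1 (-0.044), Npc2 (-0.035) and Npc1 (-0.033) with TGF-β in WT, and of Asah1 (-0.067) and Sqstm1 (-0.163) with TGF-β in KO. The sign also changed for Psap in KO-SD (-0.062), and for Lipa (-0.025) and Sqstm1 (-0.042) in KO-TGF against WT-TGF. Of these, Asah1 and Sqstm1 with TGF-β in KO and Psap in KO-SD were called after this scaling. The others were not. The median with TGF-β was -0.34 in WT under the CPM filter, and -0.33 in WT and -0.41 in KO with no filter. Leaving out single libraries gave medians of -0.38 to -0.35 with TGF-β in WT, -0.46 to -0.41 in KO, -0.028 to 0.032 for KO against WT in SD, which was above 0 without WT-SD replicate 1 or 2 or any 1 KO-SD library (0.032 without KO-SD replicate 1), and -0.143 to -0.066 for the interaction, which had 2 to 4 members higher and 11 to 19 lower. The cause of these shifts was not tested, except that the scaling moves all genes. Of the values of single genes, 2158 kept their state when a library was left out, being called in the same direction or not called. A call was gained by 32 and lost by 30. Under the other settings 1200 kept their state, 38 gained a call and 12 lost it. The remaining 8, listed above, changed sign, and only Asah1 with TGF-β in KO was called both before and after. Depth limits Cln3 and Ctsk, with at most 21 and 33 counts in a library.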

Other observations

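Between the genotypes, the other genes of the pathway were 42 higher and 37 lower in KO-SD and 41 higher and 39 lower in KO-TGF, of 134 tested. These shares were near those of all genes (30.9% higher and 25.2% lower in KO-SD, 27.2% and 27.8% in KO-TGF). Other hydrolases and cofactors had 14 of 25 higher and 3 lower in KO-SD, led by Arsb (0.40 on the log2 scale), the sulfatase of dermatan sulfate, and 6 higher and 7 lower in KO-TGF, with Ctso at -0.62. Atp6v0e2, an accessory subunit of the V-ATPase, ranged from 47.5 to 50.4 CPM in WT-SD against 20.2 to 21.5 in KO-SD, and from 39.6 to 42.2 CPM in WT-TGF against 13.3 to 16.2 in KO-TGF (log2 differences of -1.26 and -1.45, edgeR adjusted p = 7.88e-19 and 4.92e-19). Rragd was lower in KO by -0.83 in SD and -1.61 with TGF-β. Of the 40 other autophagy genes, 17 were lower and 5 higher in KO-SD, Rb1cc1 (FIP200), a scaffold of the initiating kinase complex, being the highest (0.44), and 14 lower and 10 higher in KO-TGF, where Calcoco1 was at -0.45. Of 16 sorting genes, 7 were higher and 2 lower in KO-SD (Gga2 at 0.44), and 5 each in KO-TGF. Of 13 other membrane proteins none was higher and 5 were lower in KO-SD, and of 24 mTORC1 and Tfeb-related genes 9 were higher and 6 lower.

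Mitf, a relative of Tfeb named after its values were seen, was 19.8 to 22.9 CPM in WT-SD, 8.60 to 9.36 in WT-TGF, 12.5 to 13.0 in KO-SD and 5.08 to 6.41 in KO-TGF (-1.22 and -1.13 with TGF-β in WT and KO). Tfe3, another relative chosen in the same way, rose by 0.17 and 0.30.

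Markers of other cell types also differed between the groups. Summed CPM of 7 podocyte markers was 459 to 468 in WT-SD, 456 to 474 in WT-TGF, 218 to 227 in KO-SD and 205 to 219.9 in KO-TGF. That of 8 tubular markers was 75.7 to 81.4, 22.6 to 25.8, 24.4 to 25.7 and 12.5 to 13.4, and that of 6 osteoclast markers 27.7 to 30.5, 86.9 to 89.5, 28.5 to 29.5 and 95.7 to 102.7. Of the 6 osteoclast markers, 3 or 4 had at most 3 counts in each library of a group, and 2 were tested. Of the 7 podocyte markers, 3 had at most 3 counts in each library of a group, and 4 were tested. The same held for 3 of the 8 tubular markers, and 3 of the 8 were tested. With the fit without the RPKM limit included, 2 tubular markers rose and 3 fell with TGF-β in each genotype. Between the genotypes 2 were higher and 2 lower in KO-SD, and 1 was higher and 3 lower in KO-TGF. The 7 endothelial markers summed to at most 1.06 CPM in a library. The 8 mesangial and pericyte markers summed to 1844 to 1955, 3431 to 3543, 3620 to 3724 and 7099 to 7167, mostly Acta2. The part of other cells in the values of the lysosomal genes was not tested.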
